A study of Mus musculus with 14 samples.

Results

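Facilitated glucose transporters, the proteins of the Slc2a family that let sugars cross membranes down their gradient, were followed at the RNA level in liver and kidney of salt-fed mice. The 8 genes Slc2a1, Slc2a2, Slc2a3, Slc2a4, Slc2a5, Slc2a8, Slc2a9 and Slc2a12 were taken by symbol from 22263 genes in the 2 count tables. The kidney table gave all 8 and the liver table gave 7, with Slc2a12 not analysed here in liver. Slc2a4 was chosen on its higher liver counts under high salt, so its liver diet values are a description with no test. All 14 libraries came from male mice aged 12 weeks with a human angiotensinogen transgene of the haplotype labelled -6A. The design text places that transgene in the animals to study how the human gene is regulated. The 4 groups were liver on the normal diet (n = 4), liver on high salt (n = 4), kidney on the normal diet (n = 3) and kidney on high salt (n = 3). Mice without the transgene, the salt dose and the length of feeding are not given in the sources used here, nor is whether each library is a separate animal. The p-values therefore measure the spread between these samples, which may be technical.

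Glucose transporters differ in affinity, in substrate and in where the cell keeps them. Slc2a1 (GLUT1) is the common basal transporter, and Slc2a3 (GLUT3) is a high-affinity form best known from neurons. Slc2a2 (GLUT2) is the low-affinity transporter of hepatocytes and of the basolateral membrane of the proximal tubule, where it moves glucose in either direction. Slc2a4 (GLUT4) is the form of muscle and fat that insulin brings from intracellular vesicles to the cell surface. Slc2a5 (GLUT5) carries fructose, Slc2a8 (GLUT8) is mostly intracellular, Slc2a9 (GLUT9) carries urate, and Slc2a12 (GLUT12) is a further glucose carrier. In the kidney, filtered glucose enters tubule cells with sodium through Slc5a2 and Slc5a1 and leaves them through facilitated transporters.

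Promoter sequences from RefSeq (GRCm38.p6) were found for 6 of the 8 genes by symbol. Slc2a3 and Slc2a4 were the other two. The bases just upstream of the annotated start are printed for Slc2a2 and Slc2a1, the pair whose liver counts separated the diets in opposite directions. Capitals mark CCAAT or its complement ATTGG in Slc2a2, and GGGCGG or its complement CCGCCC in Slc2a1. The Slc2a2 stretch is chr3:28697653-28697902 and the Slc2a1 stretch is chr4:119108495-119108710, both on the plus strand.
Slc2a2 promoter: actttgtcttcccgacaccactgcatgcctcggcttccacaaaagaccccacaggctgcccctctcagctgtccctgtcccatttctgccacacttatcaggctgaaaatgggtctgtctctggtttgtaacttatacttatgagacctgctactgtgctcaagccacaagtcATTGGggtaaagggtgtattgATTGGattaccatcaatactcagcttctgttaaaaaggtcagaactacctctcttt
Slc2a1 promoter: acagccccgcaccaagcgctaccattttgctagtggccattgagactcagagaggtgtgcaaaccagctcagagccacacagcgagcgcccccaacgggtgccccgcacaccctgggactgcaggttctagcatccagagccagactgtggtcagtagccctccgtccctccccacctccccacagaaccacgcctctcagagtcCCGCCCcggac
Windows of 300 bases, from 250 before the start to 50 after it, were searched on both strands for 4 motifs, none of which is contained in another. The GC box core GGGCGG was found 2 times at Slc2a1 and 3 times at Slc2a5 and in none of the other 4 windows, while 35.66% of 32851 promoters hold it. CCAAT was found 5 times at Slc2a8, 2 times at Slc2a2 and 1 time at Slc2a1, against 37.41% of all promoters with at least 1. The E-box CACGTG, held by 7.15% of promoters, was in none of the 6 windows. The motif TATAAA, held by 13.62%, was in the Slc2a1 window alone. GC content was 65.33% at Slc2a1 and 48.0% at Slc2a2, around a median of 52.67% over all promoters, with 18 and 2 CpG pairs. These matches describe the letters of the windows and not binding.

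The genes lie on 7 chromosomes of GRCm38 in the GENCODE M21 annotation, all as protein-coding genes. Slc2a4 lies at chr11:69942539-69948188 on the minus strand, Slc2a2 at chr3:28697903-28731359 and Slc2a1 at chr4:119108711-119137983, both on the plus strand. Slc2a5 (chr4:150119283-150144169), Slc2a8 (chr2:32972990-32982083) and Slc2a9 (chr5:38349273-38503143) overlap no other annotated gene, and neither does Slc2a4. Slc2a3 (chr6:122727809-122801640) holds the pseudogene Gm4482 on its own strand. Gm4482 had 3.21 to 9.15 CPM (counts scaled to library size), more than Slc2a3 itself, so the Slc2a3 counts are uncertain. Slc2a12 (chr10:22645011-22704285) overlaps Tbpl1 on the other strand, and Slc2a1 and Slc2a2 overlap antisense genes. Whether counting used the strand is not given in the sources used here, so reads of these overlaps cannot be told apart.

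Liver libraries held 37267778 to 51487382 gene counts and kidney libraries 16046094 to 22004927. CPM are counts per 1000000 counts of the TMM-scaled library, set within each tissue unless stated. The floor of 3 counts stood at 0.0530 to 0.0944 CPM in liver and 0.134 to 0.189 CPM in kidney, for counting error only. The high salt liver columns carry numbers that match no title, so they are called HS5 to HS8 and pair with no normal diet library. Normal diet liver libraries are called N1 to N4. Mitochondrial transcripts took 2.30% and 2.06% of the counts of N1 and N2, against 11.3% to 29.6% in the other 6 liver libraries. HS5 and HS6 were more alike than any other same-diet liver pair, with a mean chi-square per gene of 1.58 against 10.2 to 61.8 in the other 11 pairs. They were counted apart, and results are also given with the pair summed to 1 library where that ends a call. Markers of hepatocytes summed to 52437 to 107715 CPM in liver, and markers of the proximal tubule to 2069 to 3272 CPM in kidney, as the tissue labels state.

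Slc2a2 was the most abundant of these transporters in both tissues once levels were taken per kilobase of exon, the only scale here on which genes can be compared. In normal diet liver, Slc2a2 had 26.6 ± 8.25 CPM per kb (SD, n = 4), followed by Slc2a9 at 5.498 ± 0.687, Slc2a8 at 3.51 ± 0.897, Slc2a1 at 2.07 ± 0.447 and Slc2a5 at 1.57 ± 0.646. Slc2a4 and Slc2a3 ended the order at 0.0454 ± 0.0390 and 0.0450 ± 0.0400 CPM per kb. The libraries' ranges overlapped between Slc2a8 and Slc2a1, between Slc2a1 and Slc2a5 and between Slc2a4 and Slc2a3, and the other neighbours in that order were apart. In normal diet kidney, Slc2a2 had 16.1 ± 0.182 CPM per kb (SD, n = 3) and the fructose carrier Slc2a5 was next at 7.60 ± 0.887. Slc2a1 at 4.45 ± 0.570 and Slc2a4 at 4.38 ± 0.874 CPM per kb overlapped there. Slc2a12 at 2.11 ± 0.136, Slc2a9 at 1.65 ± 0.0675, Slc2a8 at 0.956 ± 0.0996 and Slc2a3 at 0.174 ± 0.0252 CPM per kb followed, each apart from the next. Over both tissues 9 of 13 neighbouring pairs were apart. With the longest transcript in place of the union of exons, Slc2a9 moved above Slc2a12 in kidney and Slc2a3 above Slc2a4 in liver.

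**Figure D1:**
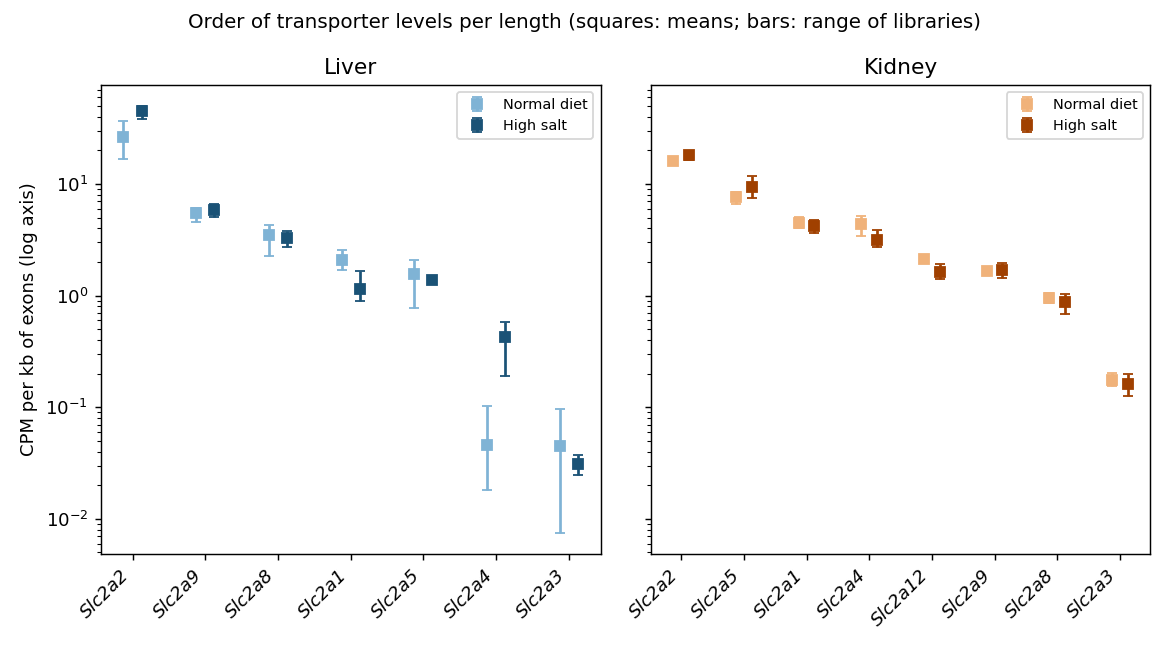
Level of each transporter in CPM per kb of exons (log axis) in liver and kidney, ordered by the normal diet mean; squares are group means (n = 4 per diet in liver, n = 3 in kidney) and bars span the libraries. Slc2a2 leads both orders, and Slc2a4 in liver moves from 0.0454 on the normal diet to 0.427 CPM per kb on high salt.

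On the normal diet most of these genes differed between liver and kidney, as did most genes measured. By edgeR, 9171 of 15688 genes passed an adjusted p of 0.05, or 58.5%, with 30.0% higher and 28.5% lower in liver. Among the 6 tested members other than Slc2a4, 4 passed, the same number as at an unadjusted p of 0.05, which 63.4% of all genes reached. All 6 had tissues whose libraries did not overlap, as had 60.5% of all genes (30.9% higher and 29.6% lower in liver). On a scale common to the 7 normal diet libraries, urate carrier Slc2a9 had 30.5 ± 3.92 CPM in liver (SD, n = 4) and 6.30 ± 0.349 CPM in kidney (SD, n = 3). It was 4.84-fold higher in liver (log2 difference 2.28, SE 0.23, edgeR adjusted p = 2.06e-05). Intracellular Slc2a8 had 12.3 ± 3.18 and 2.31 ± 0.285 CPM, a 5.32-fold higher level in liver (log2 difference 2.41, SE 0.31, edgeR adjusted p = 0.000105). Slc2a2 had 167 ± 52.3 CPM in liver and 69.6 ± 2.60 CPM in kidney, 2.40-fold higher in liver (log2 difference 1.26, SE 0.30, edgeR adjusted p = 0.00480). Slc2a5 ran the other way, with 5.82 ± 2.40 CPM in liver and 19.4 ± 2.02 CPM in kidney, 3.33-fold lower in liver (log2 difference -1.74, SE 0.34, edgeR adjusted p = 0.00155).

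Slc2a1 had 7.94 ± 1.74 CPM in liver and 11.8 ± 1.82 CPM in kidney on that common scale and did not pass (log2 difference -0.56, SE 0.25, edgeR adjusted p = 0.0798). Slc2a3 had 0.354 ± 0.315 and 0.945 ± 0.120 CPM and did not pass either (log2 difference -1.40, SE 0.68, edgeR adjusted p = 0.0997). Its difference was -2.12 without N4 (edgeR adjusted p = 0.0195) and -0.67 without N1 and N2. Slc2a4 had the widest gap of the 7, with 0.0683 to 0.388 CPM in liver and 9.22 to 13.1 CPM in kidney. That is 64.7-fold lower in liver (log2 difference -6.01, SE 0.52), given with no test since the same normal diet liver libraries served to choose it. It was -6.74 without N2 and -7.23 without N1 and N2. The direction of these gaps was the same under every scaling run, but their size was not. With TMM set within each tissue, an alternative added after seeing the data, the median of all genes moved from 0.07 to -0.46 on the log2 scale. Higher calls in liver then made up 33.0% of the calls in place of 51.2%, and 40.8% with upper quartile scaling. Under the within-tissue scaling Slc2a2 lost its call (log2 difference 0.73, edgeR adjusted p = 0.0547) and Slc2a1 and Slc2a3 gained one (adjusted p = 0.00347 and 0.0325). Relative to that median, Slc2a2 stayed above and Slc2a1 and Slc2a3 below.

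Slc2a4, the insulin-responsive transporter, was barely counted in normal diet liver and was counted in every high salt liver. Its normal diet counts were 6, 13, 2 and 3 in N1 to N4, or 0.143, 0.354, 0.0629 and 0.0721 CPM. Its high salt counts were 91, 98, 32 and 92 in HS5 to HS8, or 1.62, 2.03, 0.665 and 1.62 CPM. All 4 high salt libraries lay above all 4 normal diet libraries, with HS7 nearest to them and N2 the highest of the normal diet. Group means were 0.158 ± 0.136 CPM and 1.48 ± 0.579 CPM (SD, n = 4 each). The fitted difference was 9.25-fold (log2 fold change 3.21, SE 0.56), and 2 of the normal diet libraries were at or under the floor. Over 18 alternatives the log2 fold change ran from 2.95 to 4.399. It was 3.94 without N2, 4.399 without N1 and N2 together and 3.10 with HS5 and HS6 summed. More cells of a type and more RNA per cell cannot be told apart in these bulk samples.

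Even on high salt the liver level of Slc2a4 stayed under that of the kidney. On a scale common to all 14 libraries it was 1.78 ± 0.7104 CPM in high salt liver (n = 4) and 8.91 ± 1.76 CPM in high salt kidney (n = 3), a 5.01-fold lower level in liver (log2 difference -2.32, SE 0.40). Per kb it was 0.427 ± 0.167 CPM in high salt liver, now apart from Slc2a3 at 0.0310 ± 0.00679.

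**Figure D2:**
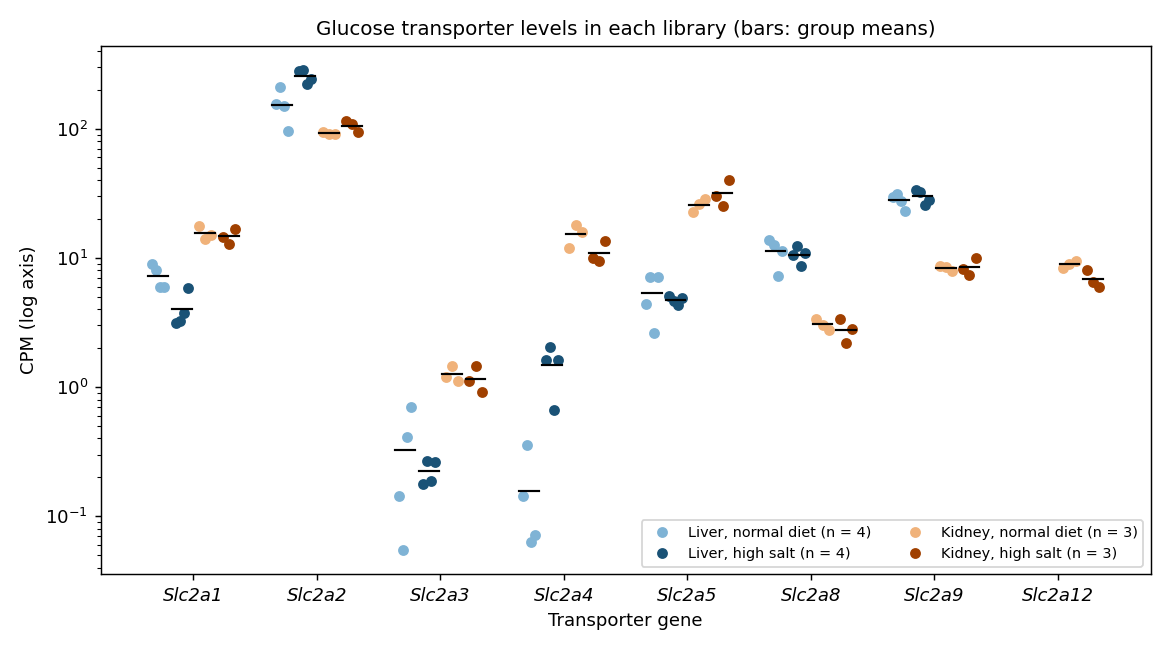
CPM (log axis, scaled within each tissue) of each transporter in every library; points are libraries, bars are group means, and colours give tissue and diet (n = 4 per diet in liver, n = 3 in kidney). The 4 high salt livers lie above the 4 normal diet livers for Slc2a4 (0.665 to 2.03 against 0.0629 to 0.354 CPM) and Slc2a2, and below them for Slc2a1.

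Markers of tissues rich in Slc2a4 were few in the liver libraries. Of 7 adipocyte markers 3 were in the liver table, and their sum was 5.90 to 12.1 CPM on the normal diet and 7.25 to 13.4 CPM with high salt. Adipoq, Plin1, Lep and Retn were not analysed here in liver. Cfd had 0 to 0.163 CPM on the normal diet and 0.0888 to 3.99 CPM with high salt, Cidec 0.594 to 2.26 and 1.23 to 1.996 CPM, and Fabp4 4.97 to 11.01 and 5.62 to 7.42 CPM. Of 7 skeletal muscle markers 3 were in the table, summing to 0.428 to 1.27 CPM on the normal diet and 0.355 to 0.686 CPM with high salt. Of 5 cardiac markers 3 were in the table, summing to 0.214 to 0.409 and 0.160 to 0.665 CPM. Kidney libraries held more Slc2a4 than liver libraries, in cells that bulk RNA does not resolve. The 5 proximal tubule markers summed to 0.547 to 1.54 CPM in normal diet liver and 1.28 to 8.58 CPM in high salt liver. The part of these cells in the Slc2a4 values was not tested.

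Markers of other cells were counted in the same way. Of the 5 hepatocyte markers none passed in edgeR, 2 lay above 0 and 3 below, and their median log2 fold change was -0.15. Albumin, Alb, had 43963 ± 8323 and 74599 ± 7507 CPM, and Cyp2e1, a drug-metabolising enzyme, had 8136 ± 1577 and 4442 ± 731 CPM (SD, n = 4 each), each with diets that did not overlap. The sum of the 5, most of it Alb, was 52437 to 83147 CPM on the normal diet and 89401 to 107715 CPM with high salt. The 8 leukocyte markers summed to 62.0 to 133 and 34.7 to 67.5 CPM, the 4 erythroid markers to 622 to 1701 and 241 to 650 CPM, and the 4 endothelial markers to 17.5 to 46.0 and 29.0 to 52.3 CPM. Their part in the transporter values was not tested.

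In liver 152 of 15130 genes, or 1.00%, passed edgeR's test of diet, 90 higher (0.595%) and 62 lower (0.410%). None of the 6 members other than Slc2a4 was among them by edgeR. At an unadjusted p of 0.05 there were 2, against 21.2% of all genes. DESeq2 called the same 2, Slc2a2 and Slc2a1, and 1122 genes in all, and limma on the deposited normalized values called 0 members. Both had diets that did not overlap, Slc2a2 higher and Slc2a1 lower on high salt, as had 12.5% of all genes tested (6.44% higher and 6.05% lower).

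Slc2a2, the main hepatocyte transporter, had 156, 212, 149 and 95.5 CPM in N1 to N4 and 282, 286, 221 and 243 CPM in HS5 to HS8. Every high salt library lay above every normal diet library, with N2 and HS7 nearest to each other. Group means were 153 ± 47.5 and 258 ± 31.2 CPM (SD, n = 4 each), a ratio of 1.69 that missed the threshold (log2 fold change 0.76, SE 0.23, edgeR adjusted p = 0.133). DESeq2 gave an adjusted p of 0.0496 for it, the only call among 19 alternatives. With HS5 and HS6 summed the log2 fold change was 0.70 (edgeR adjusted p = 0.332). Without N1 and N2 it was 1.08 (edgeR adjusted p = 0.0991). As a share of the summed levels per kb of the 7 transporters, Slc2a2 took 66.7% ± 6.47 on the normal diet and 78.6% ± 0.995 with high salt (SD, n = 4 each). That share ran from 58.0% to 71.7% and from 77.1% to 79.3%, so the diets did not overlap. It rests on the same Slc2a2 values, which make up most of the sum, and is not a separate result.

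Slc2a1, the basal transporter, had 9.06, 8.12, 5.91 and 6.01 CPM in N1 to N4 and 3.14, 3.27, 3.76 and 5.86 CPM in HS5 to HS8. Its diets were separated only narrowly, by HS8 at 5.86 and N3 at 5.91 CPM. Group means were 7.27 ± 1.57 and 4.01 ± 1.26 CPM (SD, n = 4 each), 1.81-fold lower on high salt without passing (log2 fold change -0.86, SE 0.25, edgeR adjusted p = 0.122). DESeq2 gave an adjusted p of 0.0302, the only call among 19 alternatives. Without N1 and N2, the libraries low in mitochondrial counts and highest in Slc2a1, the log2 fold change was -0.57.

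The remaining members overlapped between the diets in liver. Urate carrier Slc2a9 had 27.9 ± 3.49 and 30.0 ± 3.75 CPM (log2 fold change 0.10, SE 0.15, edgeR adjusted p = 0.720). Slc2a8 had 11.3 ± 2.88 and 10.6 ± 1.49 CPM (log2 fold change -0.09, SE 0.21, edgeR adjusted p = 0.8290), with N3 at 7.27 CPM the lowest of all 8 libraries. Slc2a5 had 5.33 ± 2.198 and 4.72 ± 0.322 CPM (log2 fold change -0.17, SE 0.29, edgeR adjusted p = 0.759), spread from 2.64 to 7.14 CPM on the normal diet and only from 4.303 to 5.04 CPM with high salt. Slc2a3 had between 2 and 29 counts a library, 0.326 ± 0.290 and 0.225 ± 0.0492 CPM, and an estimate too wide to give a direction (log2 fold change -0.53, SE 0.62, edgeR adjusted p = 0.640). It was 0.18 without N4 and -1.30 without N1 and N2. Of the other family members, Slc2a6, Slc2a10 and Slc2a13 had at most 15 counts in any liver library and were filtered out before the test, and Slc2a7 was not analysed here.

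**Figure D3:**
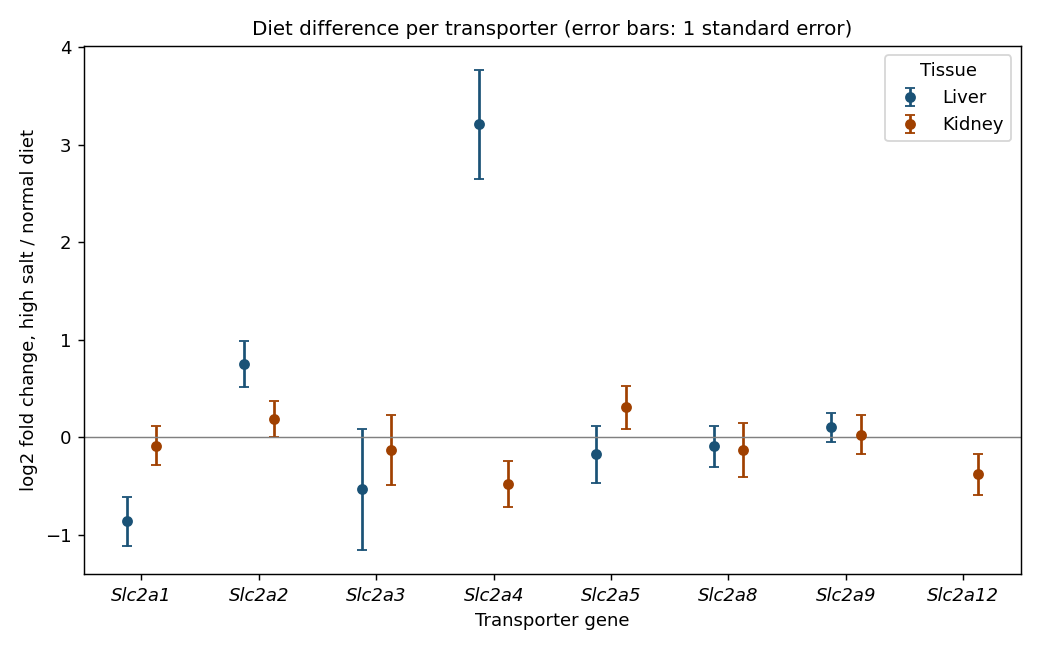
log2 fold change of high salt over normal diet for each transporter in liver (blue, n = 4 per diet) and kidney (orange-brown, n = 3 per diet), with bars of 1 standard error. Slc2a4 stands at 3.21 in liver, where it was chosen for that value, and at -0.48 in kidney; no other value exceeds 0.86 in size.

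In kidney no gene of 15847 passed edgeR's test of diet (0%), and none of the 8 members did. At an unadjusted p of 0.05 none of the 8 passed, against 2.01% of all genes, and DESeq2 called none of them and 11 genes in all. Each member's edgeR adjusted p was 0.9996. Slc2a4 had 239, 306 and 328 counts on the normal diet and 223, 149 and 296 with high salt, or 11.9, 17.9 and 15.9 CPM against 9.96, 9.39 and 13.5 CPM. The diets overlapped through the highest high salt and the lowest normal diet library. Means were 15.2 ± 3.04 and 10.9 ± 2.202 CPM (SD, n = 3 each; log2 fold change -0.48, SE 0.24). Beside it, the cardiac markers analysed in kidney summed to 2.52 to 3.63 CPM on the normal diet and 0.5001 to 0.882 CPM with high salt. Sums that overlapped were those of adipocyte markers, at 37.7 to 126.1 and 64.1 to 103 CPM, and of smooth muscle markers, at 49.6 to 62.5 and 47.8 to 65.3 CPM. The skeletal muscle markers analysed in kidney overlapped too, at 0.150 to 0.871 and 0.313 to 0.378 CPM. Their part in the Slc2a4 values was not tested.

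Slc2a12, a glucose carrier measured here in kidney alone, had 8.34, 9.02 and 9.49 CPM on the normal diet and 8.08, 6.55 and 6.001 CPM with high salt. The diets did not overlap, and Slc2a2 was the other member of which this was so; 6.92% of all genes did the same (3.85% higher and 3.07% lower). Slc2a12 means were 8.95 ± 0.576 and 6.88 ± 1.08 CPM (log2 fold change -0.38, SE 0.21). Its overlapping neighbour Tbpl1 had 12.8 ± 3.38 and 10.9 ± 1.81 CPM. Slc2a2 had 93.7, 91.9 and 91.9 CPM and then 114.4, 108 and 93.8 CPM, the last within 0.1 CPM of a normal diet library (log2 fold change 0.19, SE 0.18). The fructose carrier Slc2a5 had 22.7, 26.1 and 28.8 CPM and then 30.4, 25.4 and 40.1 CPM, which overlap (log2 fold change 0.31, SE 0.22). Slc2a1 had 15.6 ± 2.00 and 14.7 ± 2.03 CPM, Slc2a9 8.37 ± 0.343 and 8.53 ± 1.34 CPM, Slc2a8 3.07 ± 0.319 and 2.79 ± 0.572 CPM, and Slc2a3 1.26 ± 0.183 and 1.16 ± 0.273 CPM. Those 4 had log2 fold changes between -0.13 and 0.03. The inositol carrier Slc2a13, tested in kidney, had 4.66 ± 2.57 and 5.33 ± 1.34 CPM (log2 fold change 0.19, SE 0.39). It was also 56.2-fold lower in normal diet liver than in kidney (log2 difference -5.81, SE 0.76, edgeR adjusted p = 0.000128), with 0 to 5 counts a liver library.

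The difference between the tissues in their diet response was tested itself, in 1 fit of 14 libraries. No gene of 16633 passed (0%), and none of the 6 members other than Slc2a4. At an unadjusted p of 0.05, Slc2a1 alone of the 6 passed, against 10.1% of all genes, and DESeq2 called none of the 6 and 145 genes in all. The liver minus kidney difference in log2 fold change was -0.78 for Slc2a1 (SE 0.35, edgeR adjusted p = 0.480) and 0.56 for Slc2a2 (SE 0.35, edgeR adjusted p = 0.596). It was 3.69 for Slc2a4 (SE 0.63), given with no test. For Slc2a3, Slc2a5, Slc2a8 and Slc2a9 it lay between -0.48 and 0.08. These intervals do not show that the tissues respond alike.

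The 5 genes whose centred log2 CPM over the 8 liver libraries lay nearest to that of Slc2a4 were Scd1, Gm7049, Pklr, Pltp and Mid1ip1. The measure was the root mean square difference after adding 0.1 CPM, over 12190 genes with a mean of at least 50 counts, and it was 0.38, 0.46, 0.47, 0.48 and 0.56. Since Slc2a4 was chosen for its diet difference, genes near it differ between the diets by construction. Scd1, the desaturase that makes monounsaturated fatty acids, had 1868 CPM on the normal diet and 15028 CPM with high salt as group means. Pklr, the liver pyruvate kinase, had 103 and 484 CPM. Pltp, a phospholipid transfer protein, had 6.95 and 52.9 CPM, Mid1ip1, a partner of acetyl-CoA carboxylase, 19.3 and 58.0 CPM, and the predicted gene Gm7049 24.7 and 144 CPM. In all 5, HS7 was the lowest high salt library, as it was for Slc2a4. The likeness was measured over these same libraries, so that shared low value also follows from the choice. Slc2a2 was the member nearest to Slc2a4, at a difference of 1.01 with 133 genes nearer, and Slc2a1 was the farthest at 1.85.

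**Figure D4:**
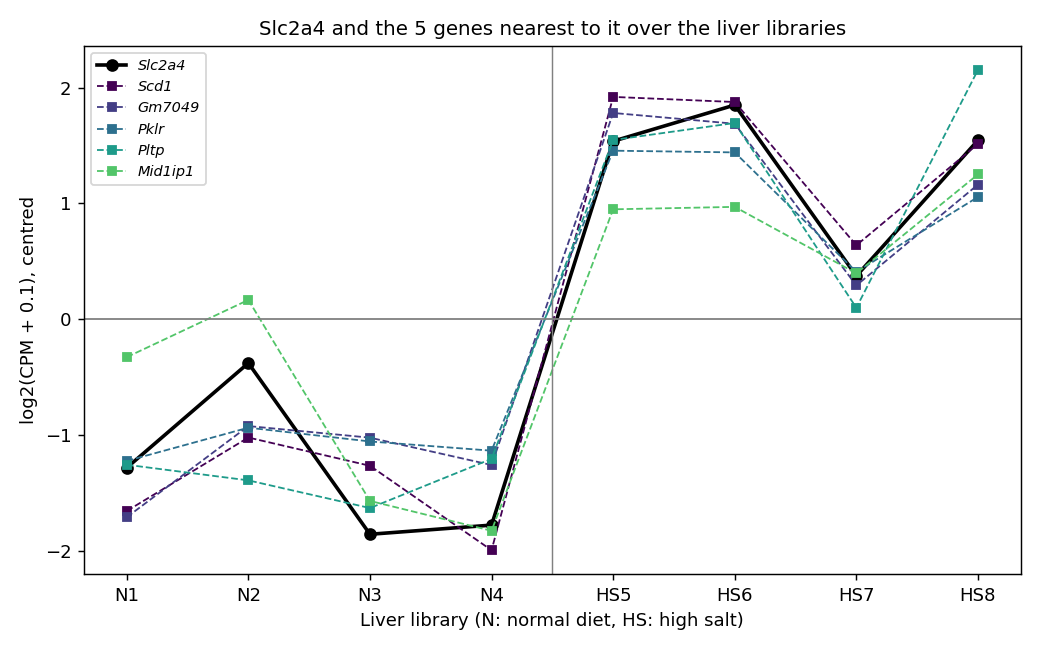
log2(CPM + 0.1) centred on its mean over 8 liver libraries, for Slc2a4 (solid black) and the 5 genes nearest to it (dashed); each point is a library and lines join the points of a gene for reading only. Each of the 6 genes has its lowest high salt value in HS7, and N2 is the highest normal diet library for Slc2a4. The 5 genes were picked for nearness over these same libraries, so shared highs and lows follow from the choice.

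Genes that act on these transporters were counted from lists by role. Of 16 transcription regulators linked to Slc2a4, 15 were tested in liver, 1 rose, 0 fell and 14 did not pass. Their median log2 fold change was 0.64, against -0.02 over all genes, with 13 of 15 above 0, as were 48.0% of all genes, and 7 at an unadjusted p of 0.05, which 21.2% of all genes reached. The gene that rose was Nfic, a nuclear factor I protein that binds DNA, at 27.9 ± 5.497 CPM on the normal diet and 64.8 ± 16.9 CPM with high salt (log2 fold change 1.22, SE 0.23, edgeR adjusted p = 0.0449). Its normal diet libraries held 22.9 to 35.1 CPM and its high salt libraries 71.4, 74.4, 39.5 and 73.9 CPM, so the diets were apart. The call was lost when any of HS5, HS6, HS8, N1 or N2 was left out (edgeR adjusted p = 0.108 to 0.182) and with HS5 and HS6 summed (edgeR adjusted p = 0.176). It held in 10 of 19 alternatives, with adjusted p from 0.000173 to 0.182. Srebf1, the SREBP1 gene that drives fat synthesis, had 119 ± 80.6 and 250 ± 101.7 CPM and did not pass (log2 fold change 1.07, SE 0.50, edgeR adjusted p = 0.253). Without N1 and N2 its log2 fold change was 2.28 (edgeR adjusted p = 0.0794).

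Of 20 genes of insulin signalling and Slc2a4 vesicle traffic, all were tested in liver and none passed in edgeR, with 5 at an unadjusted p of 0.05, a share near the 21.2% of all genes. Their median was 0.19, against -0.02 over all genes, and 15 of the 20 lay above 0, as did 48.0% of all genes. Irs1, an insulin receptor substrate, had 2.68 ± 1.24 and 6.97 ± 0.800 CPM (log2 fold change 1.38, SE 0.29, edgeR adjusted p = 0.0598; DESeq2 adjusted p = 0.000498). It was called in 5 of 19 alternatives. The edgeR adjusted p was 0.207 with HS5 and HS6 summed and 0.188 without N1 and N2. Its diets were apart, as were those of 12.5% of all genes, at 1.73 to 4.498 CPM on the normal diet and 6.26 to 8.10 CPM with high salt.

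Among 6 genes of transporter turnover 0 passed in edgeR, with a median of 0.12 and 2 at an unadjusted p of 0.05, against 21.2% of all genes. They were the arrestin-domain gene Arrdc4 (6.47 ± 1.33 and 10.2 ± 1.23 CPM, edgeR adjusted p = 0.117; DESeq2 adjusted p = 0.0310) and Gipc1, which binds the Slc2a1 tail (5.87 ± 1.30 and 3.90 ± 0.579 CPM, edgeR adjusted p = 0.172).

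Of 11 genes that phosphorylate hexoses or free glucose again, 10 were tested in liver and 0 passed, none of them at an unadjusted p of 0.05, with a median of 0.04. Glucose-6-phosphatase G6pc had 220 ± 178 and 368 ± 151 CPM (log2 fold change 0.74, SE 0.62, edgeR adjusted p = 0.503), and hexokinase Hk1 0.949 ± 0.629 and 1.64 ± 0.341 CPM (log2 fold change 0.80, SE 0.47, edgeR adjusted p = 0.347). Without N1 and N2 the value of Hk1 was 0.14. Of 5 urate genes tested beside Slc2a9, 0 passed in edgeR and 1 was at an unadjusted p of 0.05, a share near that of all genes. That was the phosphate and urate carrier Slc17a3 at 57.2 ± 7.03 and 39.1 ± 9.03 CPM (log2 fold change -0.55, SE 0.18, edgeR adjusted p = 0.152), while urate oxidase Uox had 1934 ± 485 and 2493 ± 237 CPM (log2 fold change 0.37, SE 0.24, edgeR adjusted p = 0.396). In kidney 0 genes of any of these lists passed in edgeR, nor at an unadjusted p of 0.05. The 6 sodium-coupled carriers of the Slc5a family tested there, not all of which carry glucose, lay 3 above 0 and 3 below. Slc5a2, which takes up most filtered glucose, had 66.3 ± 11.1 and 58.2 ± 5.66 CPM (log2 fold change -0.19, SE 0.20), and Slc5a1 had 38.2 ± 14.2 and 34.2 ± 3.69 CPM (log2 fold change -0.16, SE 0.27), both with an edgeR adjusted p of 0.9996.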

How the data were processed

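RNA of liver and kidney was sequenced from SMARTer libraries, per the labels. The authors deposited expected counts per gene, estimated with Partek's expectation-maximisation method, per the file headers and names. Genes are listed where their total over a tissue's libraries reaches 10. A second pair of tables that the authors deposited holds a normalized signal for each gene, whose scaling method is not given in the sources used here. The submitters' processing notes name STAR 2.5.3a, Partek 7.0, DESeq2 and mm10, with no role or order. All sample columns were used, so 0 were set aside.

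Expected counts were rounded and fitted with edgeR 4.0.16 (TMM, filterByExpr, quasi-likelihood) in R 4.3.3, in each tissue apart for diet, over all 14 libraries for the interaction and over 7 normal diet libraries for tissue, the last 2 on the 17600 genes of both tables. Benjamini-Hochberg adjusted p-values under 0.05 over all genes were called. Each SE is the size of the log2 difference divided by the square root of edgeR's F statistic. It is thus derived from the test, and for Slc2a4 in liver it is a description only. The common coefficient of variation in edgeR was 0.314 (liver) and 0.300 (kidney), and counting error can exceed it at the few counts of Slc2a4 in normal diet liver and of Slc2a3 in liver. Floors reflect counting error alone, since no molecular identifiers mark independent molecules. Exon lengths came from GENCODE M21 and promoters from RefSeq, both GRCm38. Members and lists were chosen with earlier results of these data known. Named were all family members, list genes past the threshold, the 2 list genes with the largest liver fold change and a mean of 50 counts, and the 5 genes nearest to Slc2a4. Some genes that this rule takes, and 1 list with them, are not reported here.

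The fits were tested on simulated data in which 200 genes differed by 2 (log2), and recovered 194 in liver (15209 genes), 182 in kidney (15837 genes), 110 in the interaction (16612 genes) and 163 between tissues (15563 genes), with 13, 5, 3 and 15 false calls. Simulated libraries were drawn independently, with the same spread for every gene. The likeness of HS5 and HS6 and differences smaller than 2 were not simulated. Each comparison was repeated with other scaling (RLE, upper quartile), with DESeq2 1.42.0, unfiltered, with a minimum of 10 counts per library, without mitochondrial genes and without each library in turn. The diet comparisons were also made with limma 3.58.1 on the normalized signal (pseudocounts 1 and 0.1) and with all 14 libraries in 1 fit. HS5 and HS6 were summed for liver diet and the interaction, a replicate block was fitted for kidney diet, tissue and, in kidney, the interaction, and levels used the longest transcript. Leaving out N1 and N2 together (liver diet and tissue) and TMM within each tissue (tissue) were chosen after seeing the data.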

Additional observations from a re-analysis of the deposited data

Results flagged for a closer look

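Nfic in high salt liver had 1 library far from the others. HS7 held 39.5 CPM and the other 3 libraries 71.4 to 74.4 CPM, so the gap to the nearest took most of the group's range. The same check was made on 32 groups of 4 libraries and found this 1, where chance finds about 1 in 20, or 1.6 groups.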

How the results depend on the processing

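Members called in the liver diet comparison (0 of 6) became 2 with DESeq2. The count between tissues without Slc2a4, 4, ran from 4 to 5, and the counts in kidney and the interaction were 0 under each alternative run. Over all genes the liver calls, 152, ran from 12 to 765 when 1 library was left out. They were 1122 with DESeq2, 260 with all 14 libraries in 1 fit, 52 without N1 and N2, and 12 with HS5 and HS6 summed. Kidney calls were 0 (11 with DESeq2), interaction calls 0 (145 with DESeq2, 0 to 7 with 1 library left out), and tissue calls 9171 (6957 to 9605). Of the 13 neighbouring pairs of levels per kb, 8 in place of 9 were apart with the longest transcript. Small log2 fold changes changed sign. With other settings Slc2a3 in liver was 0.0058 (limma, pseudocount 0.1), Slc2a8 in liver 0.19 (without N1 and N2), Slc2a8 in the interaction -0.026 (RLE scaling) and -0.028 (DESeq2), and Gipc1 in kidney -0.0060 and -0.0061 (limma, pseudocounts 1 and 0.1). Leaving out 1 library gave ranges of -0.26 to 0.014 for Slc2a8 and -0.88 to 0.18 for Slc2a3 in liver. In kidney they were -0.19 to 0.022 for Slc2a1, -0.31 to 0.024 for Slc2a3, -0.28 to 0.0085 for Slc2a8, -0.10 to 0.12 for Slc2a9, -0.40 to 0.47 for Hk1, -0.42 to 0.21 for Irs1, -0.25 to 0.13 for Srebf1, -0.12 to 0.13 for Gipc1 and -0.21 to 0.56 for Nfic. In the interaction they were -0.14 to 0.19 for Slc2a8, -0.71 to 0.32 for Slc2a3 and -0.020 to 0.20 for Slc2a9. The cause was not tested. Same-numbered kidney libraries of the diets correlated at 0.49, 0.46 and -0.13 in their deviations, and those of the tissues at -0.23, 0.26 and -0.30, so the numbers were not taken as pairs. With the replicate block 0 members were called in kidney and in the interaction and 5 other than Slc2a4 between tissues (Slc2a3 at -2.32, edgeR adjusted p = 0.0295; 7738 genes in all). No paired analysis was possible for liver diet because the high salt columns carry no number of the labels.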

Other observations

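Genes used as markers of the other organ were counted in both tissues, and where these transcripts came from was not tested. In kidney the 5 hepatocyte markers summed to 843 to 1318 CPM on the normal diet and 1438 to 1633 CPM on high salt. Nearly all of it was Cyp2e1, at 963 ± 230.4 and 1423 ± 92.8 CPM (SD, n = 3 each), while Alb had 16.5 ± 17.2 and 6.58 ± 2.93 CPM and Apoa1 1.27 ± 1.47 and 0.476 ± 0.449 CPM. None of the 5 passed in edgeR (3 above 0 and 2 below). In liver HS7 and HS8 had the most proximal tubule markers, at 8.58 and 4.98 CPM, and HS7 the most distal nephron markers, at 2.64 CPM against 0.0713 to 0.777 CPM in the other 7 libraries. HS7 also held 10 counts of Slc5a2, where the other 7 liver libraries held 0 to 3.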
